A study of Mus musculus with 8 samples.

Results

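Recipient cells of pups given paternal donor cells in utero were compared with recipient cells of uninjected pups. The members are 2 pooled libraries of the 8 in the series, 1 for each group, chosen from their labels as recipient (fetal) cells of DC control pIUT and of uninjected pups. The F1 pups had a CD11c-DTR mother of the C57BL/6 background and a BALB/c father. CD11c-DTR mice carry a diphtheria toxin (DT) receptor behind the promoter of Itgax, the CD11c gene, and the dams of the DC control pIUT pups had been given saline in place of DT on embryonic day 13. Each pIUT fetus was injected in the liver on embryonic day 14 with 5000000 bone marrow mononuclear cells of BALB/c mice. Uninjected pups came from dams given DT or saline, and how the 17 pooled pups divide between these dams was not given in the sources used here. The pIUT library pools 5 pups. Pups were 1 week old, and mononuclear cells of the whole body were sorted with magnetic beads and by FACS, with H2K-d marking recipient cells. BALB/c donor cells carry H2K-d too, so donor and recipient cells of pIUT cannot be told apart by this marker alone. With 1 library a group no difference has a replicate check, and each statement below compares 2 libraries and not 2 conditions. In such bulk RNA, fewer cells of a type and less RNA per cell cannot be told apart.

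The comparison asks what donor cell exposure before birth leaves in the immune cells of the recipient. B and T cells build their antigen receptors by cutting and joining V, D and J gene segments, which requires the recombinase encoded by Rag1 and Rag2. Terminal transferase, encoded by Dntt, adds bases at the joints that are in no gene segment, and mice make little of this enzyme before birth, so that receptors built in the fetus have few added bases and some are built the same way again and again. The stretch across the joints is the CDR3, and a set of reads with the same CDR3 and segments is a clonotype. In the first days of life the liver still makes blood cells while spleen, marrow and thymus take over.

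The CDR3 sequences below are the 5 largest clonotypes of each library, followed by the largest IGH and TRB clonotypes, because they show which receptors took most reads in each library and how their segments were joined. Each is written 5′ to 3′ as it was read, from the codon of the conserved cysteine to that of the conserved phenylalanine or tryptophan, and capitals mark the bases between the end of the V segment and the start of the J segment. A sequence with no capitals has no base left between the assigned V and J segments. The first 5 lines are from DC control pIUT.
TRDV4-TRDJ2: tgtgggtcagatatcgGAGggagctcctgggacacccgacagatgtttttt
TRGV6-TRGJ1: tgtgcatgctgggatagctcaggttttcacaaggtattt
IGLV1-IGLJ1: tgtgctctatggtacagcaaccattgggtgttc
IGKV8-21-IGKJ1: tgcaagcaatcttataatctgtggacgttc
IGKV14-111-IGKJ2: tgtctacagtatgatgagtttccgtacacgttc
The next 5 are from uninjected pups.
IGKV1-117-IGKJ2: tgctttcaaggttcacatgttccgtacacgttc
IGKV6-15-IGKJ1: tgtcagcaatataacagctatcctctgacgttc
IGKV6-15-IGKJ5: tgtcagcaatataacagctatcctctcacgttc
IGKV4-91-IGKJ4: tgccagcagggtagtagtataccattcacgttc
IGKV1-110-IGKJ2: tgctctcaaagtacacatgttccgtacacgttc
The largest IGH and TRB clonotypes of pIUT come first in the last 4 lines, and those of uninjected pups follow.
IGHV1-23-IGHJ4: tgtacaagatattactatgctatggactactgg
TRBV1-TRBJ1-1: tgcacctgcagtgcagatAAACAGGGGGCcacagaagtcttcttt
IGHV1-52-IGHJ3: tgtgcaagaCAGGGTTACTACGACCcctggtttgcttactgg
TRBV17-TRBJ2-7: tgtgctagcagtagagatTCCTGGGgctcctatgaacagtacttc

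In GRCm39 the gamma chain segment TRGV6 lies at chr13:19374526-19375099 and the delta chain segment TRDV4 at chr14:54312362-54312972. The kappa segment IGKV1-117 lies at chr6:68098030-68098811, the heavy chain segment IGHV1-52 at chr12:115109107-115109539 and IGHV1-23 at chr12:114728070-114728503. All 5 are annotated as germline V segments of the receptor loci.

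The 2 libraries differed in how much of the transcriptome they held. Summed counts were 40011434 in pIUT and 47965130 in uninjected, and genes with over 3 counts, the limit of detection used here, numbered 15975 in pIUT and 9937 in uninjected. Among 3776 genes at 10 CPM (the count scaled to library size) or more in each of the other 7 libraries, 359 (9.51%) were under 1 CPM in the uninjected recipient library. The same count for pIUT was 0 of 3329, and over the other 6 libraries the share ran from 0% to 4.86%. Single genes were therefore missing from the uninjected library beside others of the same cells. It held 4705 counts of Cd3e and 0 of Zap70, both needed for signalling by the T-cell receptor, and 3122 counts of Uty with 0 of Ddx3y, both on the Y chromosome. H2-Ea, an MHC class II gene that C57BL/6 mice do not express and BALB/c mice do, had 27 counts in uninjected recipient cells against 18072 of its partner H2-Eb1, or 0.149%. In recipient cells of pIUT, mIUT and DC-depleted pIUT this share was 48%, 30.3% and 40.1%. In the 4 libraries of maternal cells, which come from C57BL/6 dams, it was 0% in those of pIUT and uninjected pups, 50.7% in DC-depleted pIUT and 62.4% in mIUT. Transcripts of the Y chromosome, which cells of a dam lack, were in 3 of the 4 maternal libraries, with 753 counts of Eif2s3y in pIUT, 2988 in mIUT and 662 in DC-depleted pIUT against 0 in uninjected. By H2-Ea the library labelled uninjected recipient cells goes against its label. Its genes of the Y chromosome were mixed, with 3122 counts of Uty, 6 of Eif2s3y and 0 of Ddx3y and Kdm5d. It is called uninjected below by its label alone. Every result rests on that library, and values of the other recipient libraries are given beside some of the main ones.

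Of 16818 genes with over 3 counts in either library, 7011 (41.7%) were at least 4-fold higher in pIUT and 2059 (12.2%) at least 4-fold lower. These shares are the background against which the members of each gene list are counted below. Most of the higher calls, 5669, and 571 of the lower calls compare a detectable level with a library at 3 counts or fewer, where the ratio is a bound. The median log2 ratio of pIUT over uninjected was 1.13 over all 16818 genes and -0.11 over the 9094 detectable in both. The plot of every gene shows the cloud on the diagonal and the column of genes at the floor in uninjected cells.

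**Figure D1:**
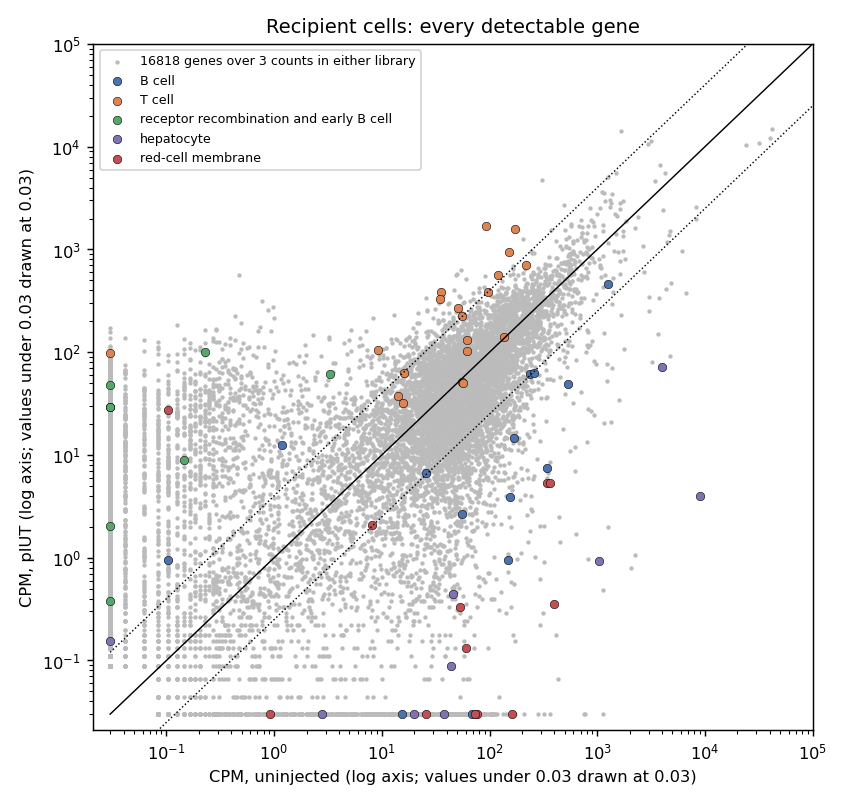
CPM of each of 16818 genes in uninjected (x, log axis) and pIUT (y, log axis) recipient cells, with 5 gene lists in colour, the line of equality solid and 4-fold lines dotted. Genes of receptor recombination lie above the upper dotted line, and 8 of 9 hepatocyte genes lie below the lower one.

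B-cell genes were lower in pIUT and the genes of receptor recombination were higher. Of 15 detectable genes of the B-cell list, 9 were at least 4-fold lower, 3 at least 4-fold higher and the median log2 ratio was -3.46. Of 7 genes of recombination and early B cells, 7 were at least 4-fold higher, with a median of 5.95. In uninjected 4 of them had 0 counts, so that their ratios are bounds. Those detectable in both libraries were Dntt, Il7r and Bst1, with 11, 7 and 161 counts in uninjected. Their log2 ratios were 8.78, 5.95 and 4.19. Cd79a, the signalling subunit of the B-cell receptor, had 26045 counts (538.5 CPM) in uninjected and 2214 counts (49.02 CPM) in pIUT, a log2 ratio of -3.46. Ms4a1, which encodes CD20, had 236.4 CPM and 61.5 CPM, a ratio of -1.94 that stayed within 4-fold.

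The lowest ratios of the list belonged to genes of mature B cells. Fcer2a, the low-affinity IgE receptor CD23, had 3358 counts in uninjected and 0 in pIUT, which makes it at least 1045-fold lower. Cr2, the complement receptor CD21, had 745 counts and 0, at least 232-fold lower. Cxcr5, the receptor that draws B cells into follicles, had 149.4 CPM and 0.952 CPM. Ighd, the constant region of IgD that mature naive B cells carry, had 338.4 CPM and 7.55 CPM, while Ighm, the constant region of IgM, had 1250 CPM and 462.4 CPM. On the log2 scale Ighd was at -5.49 and Ighm at -1.43. In the other recipient libraries Ighd was at 0.488 CPM in mIUT and 6.18 CPM in DC-depleted pIUT, so the uninjected library was the high one of the 4, and maternal cells of uninjected pups had 1032 CPM. The 3 higher members were Blk, a kinase of the B-cell receptor (0 and 1322 counts), Spib (57 and 566 counts) and Ebf1 (5 and 43 counts), both transcription factors of the B lineage.

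Rag1 had 0 counts in uninjected and 2166 counts (47.96 CPM) in pIUT, at least 773-fold higher. Rag2 had 0 and 1328 counts, at least 474-fold higher. Dntt had 11 counts (0.228 CPM) and 4527 counts (100.2 CPM), a log2 ratio of 8.78. All 3 genes of the recombination reaction were thus at or near the floor in uninjected cells and well above it in pIUT. Rag1 was at 17.7 CPM in mIUT and 7.86 CPM in DC-depleted pIUT, and Dntt at 3.49 CPM and 8.26 CPM, so pIUT was the highest of the 4 recipient libraries for both. Il7r, the receptor of the cytokine on which early lymphocytes depend, had 7 and 403 counts. Igll1, part of the surrogate light chain of pre-B cells, had 0 and 17 counts.

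Of 20 T-cell genes 10 were at least 4-fold higher and 0 lower, a share of higher calls near the 41.7% of all genes. Their median log2 ratio was 2.00, and 1.97 over those detectable in both libraries, where that of all genes was -0.11. Of 9 thymocyte genes 6 were higher and 0 lower, with a median of 3.07, or 1.84 over those detectable in both. The summed level of the T-cell list was 1460 CPM in uninjected, 7933 CPM in pIUT, 1084 CPM in mIUT and 1906 CPM in DC-depleted pIUT. That of the thymocyte list was 177.4, 1025, 173.7 and 220.7 CPM in the same order. By both sums pIUT was the high library among the recipient ones. Lck, the kinase that starts T-cell receptor signalling, had 92.8 CPM in uninjected and 1706 CPM in pIUT, a log2 ratio of 4.20. Trbc1 and Trbc2, the near-identical constant regions of the beta chain whose reads can be split between them, had 152.5 and 171.8 CPM in uninjected and 950.8 and 1599 CPM in pIUT. Cd3d had 35.5 CPM and 385.5 CPM, and Cd3e had 97.3 CPM and 382.0 CPM. Cd8a, the co-receptor of cytotoxic T cells, had 51.4 CPM and 268.3 CPM, a log2 ratio of 2.38, whereas Cd4, the co-receptor of helper T cells, had 55.9 CPM and 51.4 CPM, a log2 ratio of -0.12. The alpha chain constant region Trac was at 62.5 CPM and 102.0 CPM, a log2 ratio of 0.71 that was below those of both beta chain genes.

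Ptcra encodes the partner that pairs with the beta chain before an alpha chain is made, and it had 16 counts in uninjected and 3223 counts in pIUT, a log2 ratio of 7.75. Arpp21, which is high in immature thymocytes, had 0 and 1945 counts, at least 694-fold higher, and Tox, needed for the CD4 lineage, had 0 and 1794 counts. Ccr9, the receptor that holds progenitors in the thymus, had 14.7 CPM and 122.7 CPM. Themis, which is needed for positive selection, had 32.1 CPM and 67.5 CPM and stayed within 4-fold. Maternal cells of uninjected pups had 0 counts of Ptcra and Arpp21.

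Genes of cytotoxic cells went both ways. Of 12 genes of NK and cytotoxic cells 7 were at least 4-fold higher in pIUT, 2 lower, and the median log2 ratio was 5.44. Over the members detectable in both libraries the median was 0.76. Gzma, a granzyme, had 23 counts in uninjected and 25460 counts in pIUT, a log2 ratio of 10.21, and Gzmb had 14 and 7468 counts, a log2 ratio of 9.16. Ncr1, a receptor of NK cells, had 0 and 2184 counts, at least 779-fold higher, and Klrb1c, which encodes NK1.1, had 0 and 1112 counts. The 2 lower members were Gzmk, another granzyme, with 904 and 21 counts, and Klre1, an NK receptor, with 1335 and 258 counts. Nkg7, found in the granules of both cell types, had 135.5 CPM and 135.3 CPM. Gzmd, of the granzyme cluster, had 840 counts in uninjected and 0 in pIUT, while Gzmc, of the same cluster, had 0 and 1016.

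Of 13 detectable genes of regulatory T cells and of checkpoints 10 were at least 4-fold higher and 0 lower, with a median log2 ratio of 6.05. All of the 10 but Il2ra were at 3 counts or fewer in uninjected, where the ratio is a bound. Over the members detectable in both libraries the median was 0.75. Il2ra, the alpha chain of the IL-2 receptor (CD25), had 13 and 3243 counts, a log2 ratio of 8.06. Foxp3, the master regulator of regulatory T cells, had 0 and 185 counts, at least 66.03-fold higher. Pdcd1, which encodes PD-1, had 0 and 838 counts, and Ctla4 had 0 and 369 counts. Tnfrsf18, which encodes GITR, had 37.0 CPM in uninjected and 17.8 CPM in pIUT, and so was on the other side. Of 14 genes of T-cell activation 5 were higher and 1 lower: Ifng had 0 and 684 counts, and Cd40lg, by which helper T cells license B cells, had 1207 and 33 counts.

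MHC class II genes, through which B cells, macrophages and DC present antigen, were lower. Of 12 genes 6 were at least 4-fold lower and 1 higher, with a median log2 ratio of -1.93. Cd74, the invariant chain, had 4881 CPM in uninjected and 470.6 CPM in pIUT, a log2 ratio of -3.38. Ciita, which switches class II genes on, had 2739 and 19 counts, a log2 ratio of -7.07. The higher member was H2-Ea, at 27 and 2728 counts. Of 11 MHC class I genes 4 were higher and 0 lower, with a median of 0.04, and the 4 were Tap2, Psmb8, Psmb9 and Nlrc5.

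Of 10 genes of conventional DC 6 were at least 4-fold higher, each of them at 2 counts or fewer in uninjected, and 1 was lower. Itgax had 0 counts in uninjected and 367 counts in pIUT, and Zbtb46, a transcription factor particular to these cells, had 0 and 393 counts. Flt3, the receptor of the cytokine that drives DC development, had 3144 and 451 counts, a log2 ratio of -2.70. The list's median log2 ratio of 5.16 became -0.07 over the members detectable in both libraries.

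Of 15 genes of tissue macrophages 8 were at least 4-fold lower and 5 higher, with a median log2 ratio of -3.67. Timd4, the phosphatidylserine receptor of resident macrophages, had 5418 counts in uninjected and 0 in pIUT, at least 1687-fold lower. Vsig4, a complement receptor of the same cells, had 7969 and 8 counts, a log2 ratio of -9.86. Adgre1, which encodes F4/80, had 712.5 CPM and 40.9 CPM. C1qa, C1qb and C1qc, the chains of complement C1q, had log2 ratios of -3.68, -4.27 and -3.67. The 5 higher members, among them Clec4f, Marco and Vcam1, had 0 counts in uninjected and 265 counts or fewer in pIUT. In DC-depleted pIUT Adgre1 was at 110.6 CPM and in mIUT at 5.82 CPM.

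Among genes of the primary granules, made by neutrophil precursors, 5 of 7 were at least 4-fold lower, 1 was higher and the median was -2.71. Mpo, myeloperoxidase, had 4385 CPM in uninjected and 415.6 CPM in pIUT, a log2 ratio of -3.40, and Elane, neutrophil elastase, had 1236 CPM and 77.2 CPM, a log2 ratio of -4.00. Of 13 genes of later granules 5 were higher, a share below the 41.7% of all genes, and 0 lower, with a median of 1.86. All 13 were detectable in both libraries. Camp, cathelicidin, had 306.2 CPM and 4771 CPM, a log2 ratio of 3.96. Ngp had 1665 CPM and 14220 CPM, and Ly6g, the surface marker of neutrophils, had 26.01 CPM and 259.2 CPM. These late genes were higher still in mIUT, where Camp was at 18890 CPM, and their sum was 12940 CPM in uninjected, 54970 CPM in pIUT and 8243 CPM in DC-depleted pIUT. Of 10 monocyte genes 2 were at least 4-fold lower, Fcgr1 and F13a1, and the median was -1.26.

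Genes of mast cells and basophils on the list were not detectable in uninjected cells, whereas Prg2 and Epx, of eosinophil granules, were abundant there. Mcpt8, the basophil protease, had 0 and 5167 counts, and Cpa3, the carboxypeptidase of mast cells and basophils, had 0 and 3543 counts. Tpsb2, a mast cell tryptase, had 0 and 1804 counts. Prg2, the major basic protein of eosinophils, had 4432 CPM in uninjected and 1190 CPM in pIUT, a log2 ratio of -1.90, and Epx, eosinophil peroxidase, had 891.5 CPM and 128.0 CPM, a log2 ratio of -2.80. Other eosinophil genes did not share this, since Ccr3, the eotaxin receptor, had 0 and 150 counts and Siglecf, a surface lectin, had 0 and 211 counts. Of 11 genes on the list 9 were at least 4-fold higher and 1 lower.

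Of 12 genes of the red-cell membrane 10 were at least 4-fold lower and 1 higher, with a median log2 ratio of -7.96, and of 10 genes of heme synthesis 7 were lower and 0 higher, with a median of -2.51. Slc4a1, the anion exchanger band 3, had 344.3 CPM in uninjected and 5.38 CPM in pIUT, a log2 ratio of -6.00. Rhag, of the Rh complex, had 7870 counts and 0, at least 2450-fold lower. Klf1, the transcription factor that switches on these genes, had 14310 and 10 counts, a log2 ratio of -10.38. Of 4 detectable globins 1, Hbb-bt at -2.05, was at least 4-fold lower. The adult globins Hba-a1 and Hbb-bs, which share reads with Hba-a2 and Hbb-bt, had log2 ratios of -1.75 and -1.50, within 4-fold. Alas2, the first enzyme of heme synthesis in red cells, had 428.0 CPM and 479.3 CPM, a log2 ratio of 0.16, and the membrane gene Epb41 (protein 4.1) had 5 and 1224 counts, so the list was not uniform.

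Most hepatocyte genes and the keratin genes Krt8 and Krt18 were lower in pIUT than in uninjected. Of 9 hepatocyte genes 8 were at least 4-fold lower in pIUT, none higher, and the median log2 ratio was -8.21. Afp, the fetal plasma protein made by liver, had 437890 counts (9055 CPM) in uninjected and 179 counts (3.96 CPM) in pIUT, a log2 ratio of -11.16. Apoa1, an apolipoprotein, had 1039 CPM and 0.930 CPM, and Trf, transferrin, had 4017 CPM and 71.4 CPM. Alb, albumin, had 953 counts and 0. The summed level of the list was 14260 CPM in uninjected, 76.9 CPM in pIUT, 203.8 CPM in mIUT and 1607 CPM in DC-depleted pIUT. Krt8 and Krt18, keratins of liver and other simple epithelia, had 1136 and 1262 CPM in uninjected and 0.487 and 1.97 CPM in pIUT. Of 5 epithelial genes 3 were at least 4-fold lower and 2 higher. Afp, Apoa1 and Trf carried the high sum in uninjected, while Alb was at 19.7 CPM there and at 128.6 CPM in DC-depleted pIUT. The part of liver RNA in the other differences was not tested.

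All 13 protein genes of the mitochondrial genome were at least 4-fold lower, with a median log2 ratio of -5.26. Their summed level was 27780 CPM in uninjected, 1099 CPM in pIUT, 1709 CPM in mIUT and 658.1 CPM in DC-depleted pIUT. mt-Atp6, a subunit of ATP synthase, had 6729 CPM and 374.8 CPM, and mt-Nd1, of complex I, had 3805 CPM and 71.7 CPM. The uninjected library was the high one of all 4. Ribosomal protein genes were close to each other, with 0 of 18 past 4-fold in either direction and a median of 0.29, and of 19 ubiquitous genes 1 was lower, Polr2a, at -2.19.

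Of 21 genes of DNA replication 5 were at least 4-fold higher and 0 lower, with a median log2 ratio of 0.91, and the 5 were Cdc45, Gins1, Pola1, Pole and Prim1, each at 3 counts or fewer in uninjected. Mcm6, a subunit of the replicative helicase, had 418.4 CPM and 820.1 CPM. Of 22 genes of mitosis 7 were higher and 2 lower, with a median of 0.76. Mki67, the proliferation marker Ki-67, had 11.5 CPM and 1.99 CPM, a log2 ratio of -2.53, while Aurka, a mitotic kinase, had 251 and 4656 counts, a log2 ratio of 4.31. Of 17 interferon-stimulated genes 7 were higher and 0 lower, with a median of 0.46: Usp18 had 7 and 1974 counts, and Isg15 had 68.6 CPM and 29.0 CPM. Of 15 immediate early genes 3 were lower and 1 higher, with a median of -1.003, and Fos had 3019 CPM and 347.9 CPM.

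**Figure D2:**
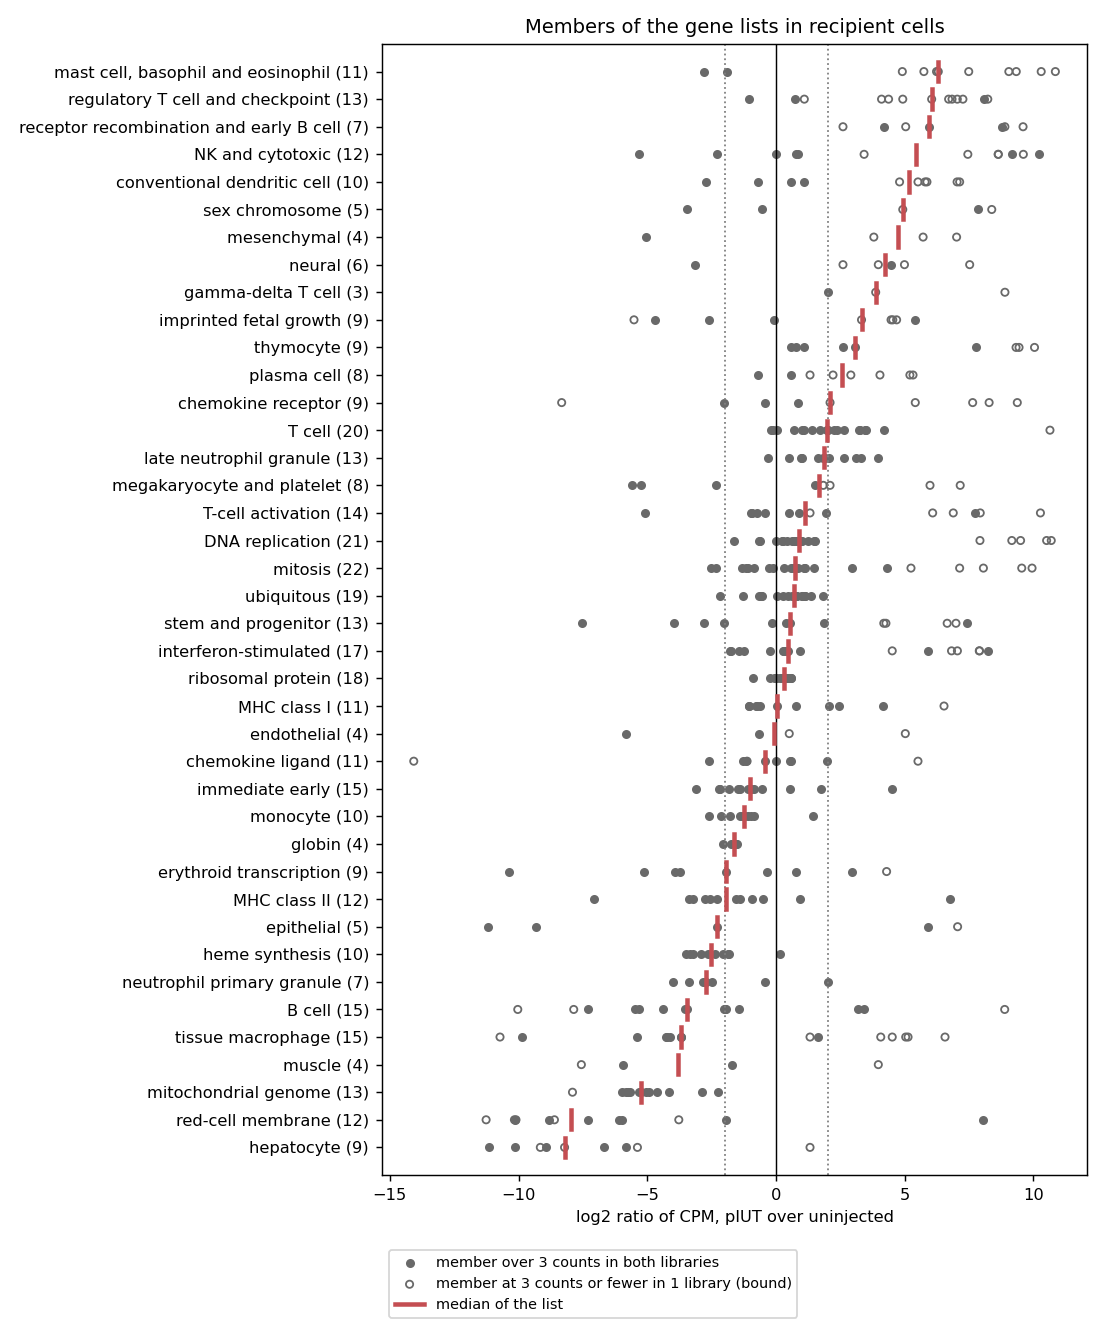
Log2 ratio of CPM, pIUT over uninjected (x), of each detectable member of 40 gene lists (y, number of members in brackets), with the list median in red and dotted lines at 4-fold. Open points are bounds, which gather on the right, and the hepatocyte list has the lowest median, -8.21.

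Over all genes with at least 100 CPM in the higher library, 2468 by the rule used, 181 were at least 4-fold higher and 341 at least 4-fold lower. The lowest was Cxcl13, the chemokine that draws B cells to follicles through Cxcr5, with 55115 counts (1140 CPM) in uninjected and 0 in pIUT, at least 17160-fold lower. Its level was 0.0349 CPM in mIUT and 0.0912 CPM in DC-depleted pIUT. Apoa4, an apolipoprotein, had 37084 counts and 0, Ly6m had 36803 and 0, and Ltbp1, a binding protein of latent TGF-beta, had 15454 and 0. Hspa1b and Hspb1, heat shock proteins, had 100155 and 13516 counts in uninjected and 36 and 0 in pIUT, and the prostacyclin synthase gene Ptgis had 8326 and 0. Prg4, Slco2a1 and Nid1 completed the 10 lowest. The 10 highest each had 3 counts or fewer in uninjected: Slc29a1, a nucleoside transporter, had 0 and 7768 counts, at least 2773-fold higher, Rmnd5a had 0 and 7146, and Mapkapk3, a kinase, had 0 and 5050. Beside Mcpt8 and Prim1 the others were Casp2, Zfp422, Zmpste24, Cbfb and Bckdha, with 100.1 to 137.8 CPM in pIUT. These 10 were detectable in each of the other recipient libraries.

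The remaining lists held few members. Of 8 plasma cell genes 5 were higher and 0 lower, of 8 megakaryocyte genes 3 were higher and 3 lower with Pf4 (platelet factor 4) at -5.58, and of 9 genes of erythroid transcription 2 were higher and 4 lower. Of 13 stem and progenitor genes 5 were higher, such as Cd34 with 13 and 2054 counts, and 4 were lower, such as Procr with 5531 and 28. Of 11 chemokine ligands 1 was higher and 2 lower, and of 9 chemokine receptors 5 were higher and 2 lower. Of 9 imprinted growth genes 5 were higher and 3 lower, with H19 at -2.59, and of 5 genes of the sex chromosomes 3 were higher and 1 lower. Mesenchymal, endothelial, muscle and neural lists had 3, 1, 1 and 5 members higher and 1, 1, 2 and 1 lower, of 4, 4, 4 and 6 detectable. Of 3 gamma-delta T-cell genes 3 were higher and 0 lower, with Trdc, the delta chain constant region, at 37.3 CPM and 152.1 CPM.

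The receptor repertoires differed more in number of clonotypes than in reads. Uninjected recipient cells held 148 clonotypes in 66848 receptor reads and pIUT 5488 clonotypes in 48175 reads, a ratio of 37.1. At the lower of these depths the uninjected library would hold 141.5 clonotypes on average. This makes the reads equal but not the molecules sampled, which the reads do not count. Reads per clonotype were 452 in uninjected and 8.78 in pIUT. The Hill number of order 1, the number of equally large clonotypes that would give the same diversity, was 63.8 in uninjected and 3728 in pIUT. Recipient cells of mIUT held 666 clonotypes in 4043 reads, with a Hill number of 528.3. Those of DC-depleted pIUT held 3064 clonotypes in 18579 reads, with a Hill number of 1637. The median clonotype had 306.5 reads in uninjected and 7 in pIUT. The 10 largest clonotypes took 40.0% of reads in uninjected and 3.58% in pIUT. Clonotypes with 100 reads or more numbered 94 of 148 and 8 of 5488, so large clonotypes made up most of the first library and almost none of the second. Reads carry no molecular identifiers, so all intervals and floors here cover counting error only.

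T-cell receptors made up most of the pIUT repertoire and B-cell receptors most of the uninjected one. TCR chains were 25.0% of clonotypes in uninjected and 89.2% in pIUT, and 15% and 85.2% of reads. In recipient cells of mIUT and of DC-depleted pIUT they were 65.8% and 58.4% of clonotypes. TRB numbered 22 clonotypes in uninjected, 14.9% (95% Wilson interval 10% to 21.5%), and 4101 in pIUT, 74.7% (73.6% to 75.9%). TRA numbered 12 and 561, TRG 1 and 135, and TRD 2 and 98. IGH numbered 54 (36.5%) and 227 (4.14%), IGK 47 (31.8%) and 341 (6.21%), and IGL 10 and 25. IGK took 58.6% of reads in uninjected and 11.3% in pIUT. In number, clonotypes of every chain were more in pIUT, while as shares IGH, IGK and IGL were lower, as the plot of chains shows.

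**Figure D3:**
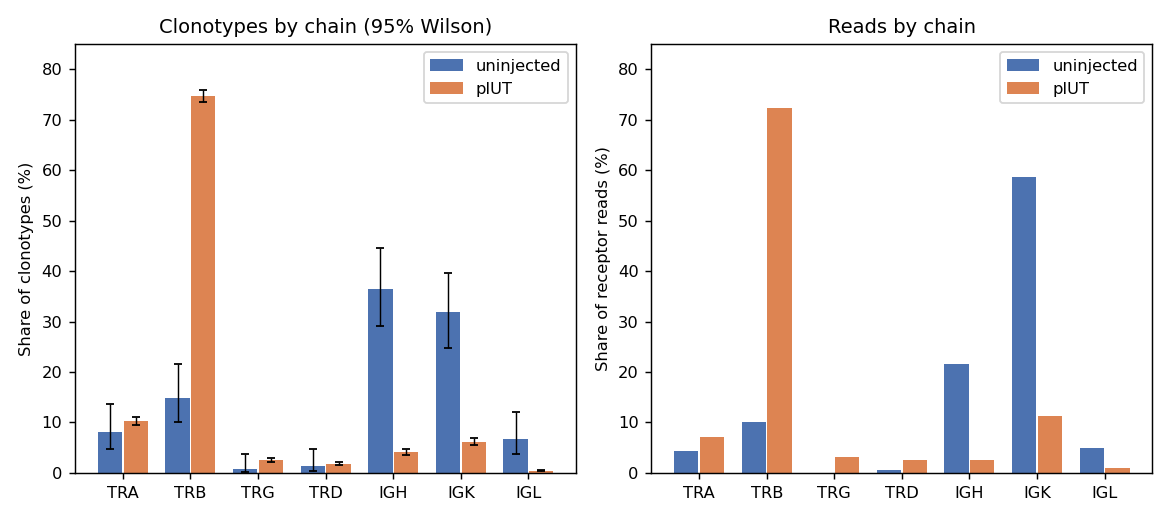
Share of clonotypes (left, with 95% Wilson intervals for counting error) and of receptor reads (right) by chain in uninjected and pIUT recipient cells. TRB makes up 74.7% of clonotypes in pIUT and 14.9% in uninjected, and IGK makes up 58.6% of reads in uninjected.

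Clonotypes were also compared with those of the other libraries, a clonotype counting as shared when chain, V, J and all CDR3 bases were the same. Of the 148 in uninjected recipient cells 47 (31.8%), with 64.0% of reads, were also listed in maternal cells of uninjected pups. Of the 5488 in pIUT 220 (4.01%), with 10.5% of reads, were listed there too. Uninjected recipient cells also shared 36 clonotypes, with 44.7% of reads, with pIUT, 34 (23%), with 50% of reads, with DC-depleted pIUT, and 19 (12.8%), with 36.5% of reads, with recipient cells of mIUT. Those that uninjected recipient cells shared with maternal cells of uninjected pups comprised 36 of 47 IGK, 7 of 10 IGL, 2 of 54 IGH, 1 TRA and 1 TRD. Those that pIUT shared with the same maternal library comprised 200 of 341 IGK (58.7%) and 15 of 25 IGL (60%). They also held 2 of 4101 TRB, 2 of 135 TRG, 1 of 98 TRD and 0 of 227 IGH. IGKV1-117-IGKJ2, the largest clonotype of uninjected cells, had 7017 reads there, 8235 in maternal cells of uninjected pups and 6 in pIUT. No base lay between V and J in 43 of 47 IGK joints (91.5%) of uninjected cells. The 2 shared IGH clonotypes held 1829 reads, 12.7% of IGH reads. Without the clonotypes listed in the maternal library, 101 remained in uninjected and 5268 in pIUT, with TCR chains at 34.7% and 92.8%.

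Between the 2 recipient libraries 36 clonotypes were the same, 24.3% of those in uninjected and 0.656% of those in pIUT. They comprised 21 IGK, 4 IGL, 8 TRB, 1 TRA, 1 TRD and 1 TRG. The largest of them in pIUT was TRDV4-TRDJ2. Among the 8 TRB clonotypes, TRBV5-TRBJ2-4 had 334 reads in uninjected and 8 in pIUT, and the other 7 had 1 to 9 reads in uninjected.

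The joints of the heavy chain were longer in uninjected cells and held more bases from no segment. Bases between V and D plus between D and J, counted where a D segment was assigned, averaged 7.37 ± 4.40 (SD over 49 clonotypes of 1 library) in uninjected and 0.569 ± 1.33 (SD over 160 clonotypes) in pIUT. Joints with no such base were 2 of 49 (4.08%, 1.13% to 13.7%) in uninjected and 113 of 160 (70.6%, 63.2% to 77.1%) in pIUT. In recipient cells they were 74.2% in mIUT and 62.7% in DC-depleted pIUT. In maternal cells they were 82 of 1878 (4.37%) in uninjected pups, 7 of 12 (58.3%) in mIUT, 6 of 7 (85.7%) in pIUT and 14 of 22 (63.6%) in DC-depleted pIUT. Both libraries of uninjected pups thus had the low shares among the 8. Of the sequences printed above, IGHV1-52-IGHJ3 has 16 bases between V and J, its D segment among them, and IGHV1-23-IGHJ4, to which no D segment was assigned and which is outside these counts, has none. The IGH CDR3 averaged 41.5 ± 4.96 bases in uninjected, 35 ± 7.47 in pIUT and 41.1 ± 8.04 in maternal cells of uninjected pups.

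TRB joints differed less. Those with no added base were 4 of 13 (30.8%, 12.7% to 57.6%) in uninjected and 1440 of 2951 (48.8%, 47.0% to 50.6%) in pIUT, against 77.1% in mIUT, 65.3% in DC-depleted pIUT and 13.7% in maternal cells of uninjected pups. The interval of the uninjected share covers that of pIUT, so no difference was detectable at this number of clonotypes. The median TRB CDR3 was 39 bases in both groups.

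**Figure D4:**
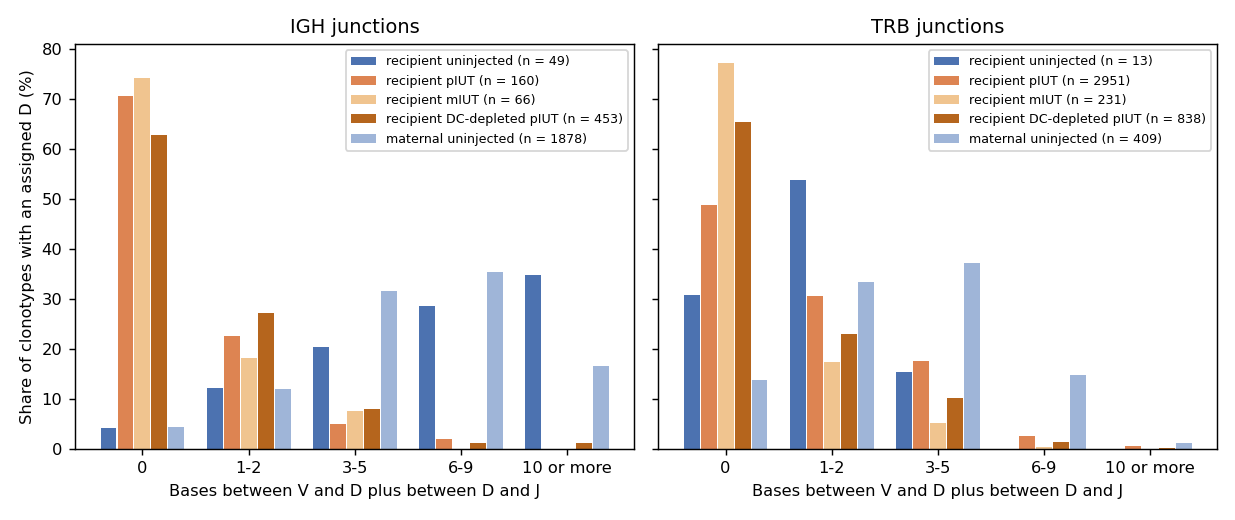
Share of IGH (left) and TRB (right) clonotypes (y, %) by the number of bases between V and D plus between D and J (x), in recipient cells of 4 treatments and in maternal cells of uninjected pups. In the IGH panel uninjected recipient cells have 4.08% of joints at 0 and pIUT 70.6%.

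IGHM was the constant region of 39 of 54 IGH clonotypes in uninjected and of 209 of 227 (92.1%) in pIUT, and IGHD of 10 (18.5%) and 8 (3.52%). IGHG2B was found on 2 clonotypes in uninjected and on 0 of 227 in pIUT. Segments of the IGHV1 family, the largest, were used by 57.4% (44.2% to 69.7%) of IGH clonotypes in uninjected and 33.0% (27.2% to 39.4%) in pIUT, and those of IGHV5, which lies nearer the D segments, by 11.1% (5.19% to 22.2%) and 26% (20.7% to 32.1%), so that the IGHV5 intervals met. In maternal cells of uninjected pups these shares were 60.7% and 10.1%. IGHJ2 was used by 55.6% and 28.2%. Lambda chains were 17.5% of light chain clonotypes in uninjected (9.82% to 29.4%) and 6.83% in pIUT (4.67% to 9.89%), so the intervals met.

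Use of TRB segments in pIUT was broad. The 4101 clonotypes used 26 V and 13 J genes, and the 22 of uninjected cells 14 V and 8 J genes. TRBV13-2 was the most used V gene in pIUT, with 363 clonotypes (8.85%), followed by TRBV31 with 339 (8.27%) and TRBV19 with 335 (8.17%). In maternal cells of uninjected pups these shares were 10.5%, 8.43% and 8.43%. TRBJ2-7 was the most used J gene, at 17.8% in pIUT. The largest TRB clonotype of pIUT, TRBV1-TRBJ1-1, had 51 reads, and the largest of uninjected cells, TRBV17-TRBJ2-7, had 1549 and was in no other library. Of TRB clonotypes 91.0% were in frame without a stop codon in pIUT, and 22 of 22 in uninjected.

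Rearrangements of the gamma and delta chains included the invariant ones that are made in the fetal thymus. TRDV4-TRDJ2 had 464 reads in pIUT and 400 in uninjected, and was the largest TRD clonotype of both. The same sequence had 12 reads in mIUT, 482 in DC-depleted pIUT and 121 in maternal cells of uninjected pups. TRGV6-TRGJ1 had 357 reads in pIUT and 11 in uninjected, where it was the TRG clonotype found, and 25, 469 and 0 in mIUT, DC-depleted pIUT and maternal cells of uninjected pups. These chains pair in the gamma-delta T cells that settle in mucosa and make IL-17, and Il17a had 0 counts in uninjected and 190 in pIUT. The invariant TRGV5-TRGJ1, of the T cells of the skin, had 62 reads in pIUT and 0 in uninjected. Its sequence is shown because it differs from TRGV6-TRGJ1 at 1 of 39 bases, A6C, with positions counted from the first base printed.
TRGV5-TRGJ1: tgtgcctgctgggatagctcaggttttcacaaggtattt

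TRGV6-TRGJ1 as a whole took 24.6% of TRG reads in pIUT and TRDV4-TRDJ2 took 38.6% of TRD reads. By number, TRGV3 was the most used TRG segment in pIUT with 67 of 135 clonotypes (49.6%), and TRGV4 followed with 44 (32.6%). Of the 135 TRG clonotypes 50 (37.0%) were in frame without a stop codon, against 84 of 98 TRD clonotypes (85.7%). Counted by their J segment, 196 clonotypes of pIUT were delta rearrangements, of which 116 joined a TRAV segment to a TRDJ segment and stand under TRA above, 68 of them with TRAV15. In uninjected cells there were 5, of which 3 stand under TRA. The invariant alpha chain of NKT cells, TRAV11-TRAJ18, was not listed in either library, among 561 TRA clonotypes with 3443 reads in pIUT and 12 with 2873 reads in uninjected.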

How the data were processed

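The members and gene lists were chosen with earlier results of these data known. Per the labels and the methods of the study, cells of all pups of a group were pooled into 1 library. The authors deposited an estimated count per gene, the expected counts of reads aligned to GRCm39, not normalized, in a table named for salmon, whereas the methods name another counter. The submitters' processing notes also name StringTie and bcl2fastq. The authors also deposited MiXCR tables of receptor reads of the 8 libraries, with a read count and a fraction of reads for each clonotype, made from the raw reads without molecular identifiers. All columns belonged to a sample.

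Expected counts were rounded to whole numbers. Of the gene identifiers 97.99% matched the GRCm39 annotation used here for positions. CPM used library sizes scaled by TMM factors of the 8 libraries (edgeR 4.0.16). Counts of 3 or fewer were set to 3 in each library, so that a ratio against them is a bound, and a ratio of 4 or more in either direction was called. With 1 library a group there is no p-value. Medians of 41 lists (481 genes) are over members with over 3 counts in either library. A clonotype is a line of the deposited table. Shares have Wilson intervals at 95%, and the number at equal depth is the hypergeometric expectation (scipy 1.17.1). Scripts were tested on simulated data. Alternatives were library size alone, TMM of the 2 libraries, DESeq2 1.42.0 size factors, other limits and folds, edgeR's fold change, and other clonotype definitions.

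Named genes were the first 4 detectable members of each list, up to 4 others with the largest ratio at 10 CPM or more, and over all genes the 10 highest and 10 lowest ratios at 100 CPM or more, without receptor segments, pseudogenes and predicted genes. 25 genes fall outside it and were chosen after their values were seen, namely Ebf1, Ighm, Ighd, Spib, Igll1, Il7r, Cd4, Cd8a, Trac, Trbc1, Il17a, Klre1, Gzmk, Nkg7, Nlrc5, C1qc, Marco, Vcam1, Mcm6, Pole, mt-Atp6, Irf4, Igha, Ccr3 and Siglecf. Some genes of the lists are counted but not reported here by name. Vpreb1, Vpreb2, Tcrg-C1, Tcrg-C2, Tcrg-C4, H2-Ea-ps, Ahsp and Hprt were not analysed here.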

Additional observations from a re-analysis of the deposited data

Results flagged for a closer look

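The number of clonotypes was 37.1 times as high in recipient cells of pIUT as in those of uninjected pups, whereas in maternal cells of the same groups the ratio was 0.00723. The Hill number of order 1 went the same 2 ways, with a ratio of 58.4 in recipient cells and 0.019 in maternal cells. Both pairs were singled out because the contrast ran in opposite directions in the 2 cell populations. The library labelled maternal cells of pIUT held 753 counts of Eif2s3y, 408 of Ddx3y and 320 of Uty, genes of the Y chromosome that a dam lacks, while its 0 counts of H2-Ea against 701 of H2-Eb1 run with its label. The ratios in maternal cells rest on that library. The difference was not tested, since each of the 4 libraries is the one library of its group.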

How the results depend on the processing

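No paired analysis was possible because each group has 1 library, and no replicate could be left out for the same reason. Genes higher in pIUT numbered 933 in place of 7011 where at least 10 counts were required in both libraries, which leaves out every gene undetectable in uninjected cells. Genes lower numbered 3398 at 2-fold and 1180 at 10-fold in place of 2059. The median over all genes turned from 1.13 to -0.184 with at least 10 counts in both libraries and to -0.110 with over 3 in both. Both values of this median, and the setting of over 3 counts in both, were added after seeing the data. Under these 2 settings the median of conventional DC genes became -0.07 in both and that of chemokine receptors -0.41 in both, imprinted growth genes became -2.59 and -1.33, and sex chromosome genes became -0.56 with over 3 counts in both. The median of NK and cytotoxic genes moved from 5.44 to 0.76 under both. Over all alternatives 206 list medians stayed close to the reported ones, 51 moved and 7 turned, none of the 7 under the scaling alternatives. Turned means a change of sign from a reported median log2 ratio of at least 2 in either direction. Other changes of sign were counted as moved or close. The Hill number ratio of 58.4 was 178 over TCR chains alone and 6.90 over BCR chains alone. The TCR share of 89.2% in pIUT was 90.2% with clonotypes merged by CDR3 amino acids, 85.2% of reads and 92.8% without clonotypes listed in maternal cells of uninjected pups, and the share of 25% in uninjected was 15% of reads and 34.7% without them, the last setting added after seeing the data. Of the named genes Trdc, Psmb8, Fcgr1, Hbb-bt and Igll1 came within 4-fold under at least 1 alternative, and Ms4a1, Cd3e and Prg2 passed it under 1. By reads alone the floor of 3 counts equals 0.0664 CPM in pIUT and 0.062 CPM in uninjected. The number of reads does not show how many molecules were sampled. In uninjected, 359 of 3776 genes at 10 CPM or more in each of the other 7 libraries were under 1 CPM. A gene at the floor there need not be low in the cells. The shares by chain in uninjected cells are limited by the 148 clonotypes on which they rest.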

Other observations

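Among genes of erythroid transcription Gata1, the factor that starts red-cell and platelet development, had 45 counts in uninjected recipient cells and 324 in pIUT, a log2 ratio of 2.95, while Epor, the erythropoietin receptor, had 1319 and 81 counts, a log2 ratio of -3.93, and Gfi1b, a repressor of the same lineage, was at -5.12. Among megakaryocyte genes Itga2b, the platelet integrin CD41, was at -2.35. Among plasma cell genes Irf4, needed for these cells, had 0 and 103 counts, and Igha, the constant region of IgA, had 0 and 46 counts. Sparc, a matrix protein of stromal cells, was at -5.03.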
